A study of Mus musculus with 6 samples.

Results

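The genes described here make ribosomes: 43 ribosome biogenesis and nucleolar genes, chosen by name, of which 37 could be tested among the 12426 genes measured in DN3 thymocytes. A gene was counted as measured when a probe carried its name, or an older name of the same gene, in the authors' probe table and was detected on at least 3 of 6 arrays. DN3 thymocytes are immature thymic T cells, at the stage where a productive T cell receptor beta chain is required to go on. The sort took CD25+ thymocytes negative for CD44 and for markers of later T cells (CD4, CD8), gamma-delta T cells, B cells (B220), NK cells (NK1.1) and myeloid cells (CD11b, CD11c). Wild-type C57BL/6 mice (WT) gave 3 samples, and mice of that strain label with a miR-185 transgene (Tg) gave the other 3; the study set out to find the molecular targets of this microRNA in DN3 cells. Ages, the promoter that drives the transgene and whether a sample was 1 mouse or a pool are not given in the sources used here, so the p-values speak only of the variation among these 6 samples, some of which may be technical. Each sample was hybridised to 1 Illumina BeadChip array, on which a probe's intensity measures the RNA it binds. Values below are normalised log2 intensities, and a difference is Tg minus WT on that scale, where -1 means a 2-fold lower intensity. Levels are compared between arrays for 1 probe, never between probes.

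Ribosomes are built in the nucleolus, where RNA polymerase I transcribes the precursor of the ribosomal RNAs. Small nucleolar ribonucleoproteins (snoRNPs) of the box C/D and box H/ACA classes guide ribose methylation and pseudouridylation of that precursor. Large assemblies of further proteins fold and cut it into the RNAs of the 40S and 60S subunits. In T cell development, production of ribosomes is known to increase when thymocytes pass beta-selection and begin to grow and divide, and many of these genes are known targets of the transcription factor MYC.

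Some arrays were closer to each other than others, which bears on every result. WT 2 and WT 3 correlated at r = 0.997 over genes, against at most 0.990 for any other pair, and over the ribosome biogenesis genes the SD of the difference from the WT mean was larger in Tg 2 than in Tg 1 or Tg 3. Each array detected between 39.5% and 41.8% of 45281 probes, with a median of 41 to 42 beads per probe. Precision is set by there being only 3 arrays a group. The defining DN3 genes Il2ra, Ptcra, Cd3e, Rag1, Notch1 and Dtx1 were detected on all 6 arrays, and 2 of these 6 rose in Tg cells. These were the CD25 gene Il2ra, by 1.54 ± 0.23, and the Notch target Dtx1, by 2.54 ± 0.39 (SE; adjusted p of 0.0161 and 0.0164, limma). Cd3e had a difference of 0.57 ± 0.14 (SE; adjusted p = 0.0631, limma). Of genes of other cells, Cd8a, the NK cell genes Ncr1 and Klrb1c and the myeloid genes Itgam and Itgax were detected on 0 arrays. Csf1r, also myeloid, was detected on 2 WT and 2 Tg arrays. Lyz2, the lysozyme gene of myeloid cells, was detected on all 6, with 5.75, 7.19 and 7.02 in WT and 8.29, 8.59 and 7.42 in Tg arrays. All Tg arrays were above all WT arrays for Lyz2, with a difference of 1.45 ± 0.45 (SE; adjusted p = 0.123, limma). The part of these marker differences in the ribosome biogenesis results was not tested. Cd8b1, which encodes a CD8 chain and was sorted against as protein, was nevertheless detected on all 6 arrays.

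Ribosome biogenesis genes had lower levels in Tg cells across nearly the whole list, by a modest amount each, while only 1 of them passed the test over all genes. Of 37 tested genes, 36 had a negative difference, against 50.1% of all genes, and the exception was Wdr74. The median difference was -0.60, with a range from -1.29 (Ncl) to 0.03 (Wdr74), against a median of -0.0014 over all genes tested. A gene was called when its adjusted p was under 0.05 (limma, Benjamini-Hochberg over all 12426 genes). By that rule 1 of the 37, Nop56, fell and 0 rose, while 1.68% of all genes fell and 2.55% rose (4.23% in either direction). A share of 2.70% of the list is close to that background. At an unadjusted p under 0.05 in limma, 23 of the 37 (62.2%) were lower and 0 higher, against 8.89% lower among all genes. At an adjusted p under 0.1 there were 12 (32.4%), against 3.57% of all genes. In 25 of the 37 (67.6%) all Tg values lay below all WT values, against 13.2% of all genes, and in 0 did all Tg values lie above, against 14.9% of all genes. These counts include Nolc1, which passed the detection filter through its WT arrays. Over genes whose probe was detected on all 6 arrays, a count added after the data were seen, 22 of 36 (61.1%) were lower at an unadjusted p under 0.05, against 8.94% of such genes, and 24 (66.7%) had all Tg below all WT values, against 13.8%. In bulk RNA, a smaller share of the cells that make most ribosomes and less of these RNAs in every cell cannot be told apart.

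**Figure D1:**
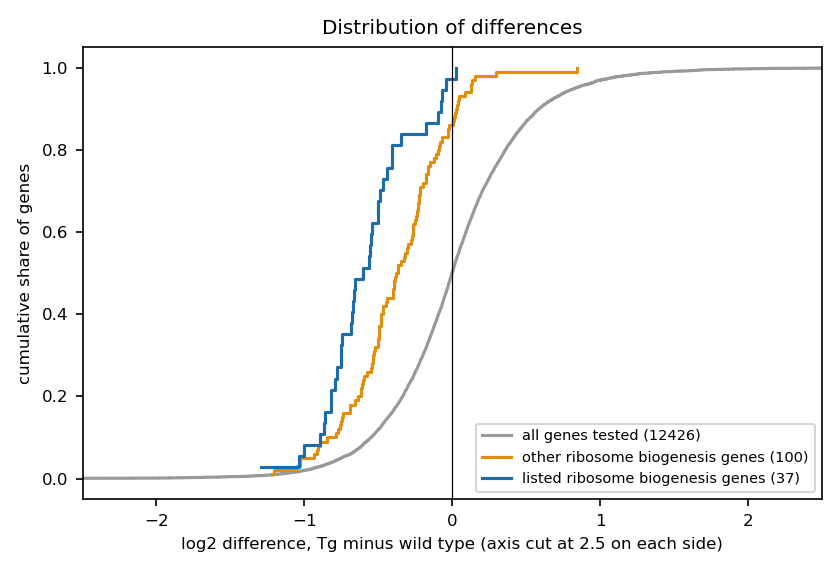
Cumulative share of genes (vertical axis) with a log2 difference, Tg minus wild type, up to the value on the horizontal axis, for all 12426 genes tested, 100 other ribosome biogenesis genes and the 37 listed genes. The listed genes lie to the left of the rest, with a median of -0.60, and 36 of them lie below 0.

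The number of genes called depended on which arrays were in the fit. Without Tg 2, 17 of the 37 fell (45.9%), while 6.27% of all genes fell in the same fit, and all 37 had a negative difference. Those 17 were Bop1, Ddx21, Gar1, Gnl3, Grwd1, Heatr1, Mybbp1a, Nat10, Ncl, Nhp2, Noc4l, Nop56, Npm1, Polr1a, Polr1b, Ppan and Rrp1b. The median without Tg 2 was -0.55. Without Tg 3, 4 of the 37 fell, Ddx21, Gnl3, Npm1 and Rrp1b, while 1.88% of all genes fell in the same fit. Without any of WT 1, WT 2, WT 3 or Tg 1, and with WT 2 and WT 3 averaged as 1 sample, limma called 0 of the 37. Few of the 12426 genes were called in those fits at all. There were 1, 47, 2 and 49 without WT 1, WT 2, WT 3 and Tg 1, and 36 with the average. In those 5 fits, the median stayed between -0.65 and -0.53.

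RNA polymerase I makes the ribosomal RNA precursor, and all 3 of its listed subunits had negative differences, against 50.1% of all genes. Of its subunits outside the list, Polr1e, Polr1f and Polr1g had differences of -0.50, -0.17 and -0.53. Polr1d had 0.03, and Polr1h had 0.29 (adjusted p = 0.365, limma) with all Tg arrays above all WT arrays. Polr1b, the second largest subunit, had log2 intensities of 9.43, 9.07 and 9.09 in WT 1, 2 and 3 and of 8.05, 8.56 and 7.98 in Tg 1, 2 and 3. All Tg arrays were lower than all WT arrays, with Tg 2 the highest of them. The difference was -1.0001 ± 0.24 (SE; adjusted p = 0.0592, limma), a level of 50% of WT. Polr1a, the largest subunit, had 10.70, 10.64 and 10.57 in WT and 10.12, 9.76 and 10.01 in Tg arrays. Here Tg 2 was the lowest and the groups again did not overlap, with a difference of -0.67 ± 0.17 (SE; adjusted p = 0.0660, limma). Polr1a has 4 kept probes, and their differences ran only from -0.73 to -0.67. Polr1c, a subunit shared with RNA polymerase III, had a difference of -0.47 ± 0.21 (SE) and its groups touched, since Tg 2 at 9.52 lay just above WT 3 at 9.51.

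Among box C/D snoRNP genes, Nop56, a core protein of these particles, was the gene that passed. Its log2 intensities were 10.56, 10.76 and 10.78 in WT 1, 2 and 3 and 10.11, 9.85 and 9.88 in Tg 1, 2 and 3, from deposited intensities of 1799, 1721 and 1728 in WT and 1259, 1134 and 857 in Tg arrays. The lowest WT value stood clear of the highest Tg value, and Tg 2 did not stand apart. Nop56 fell by 0.75 ± 0.16 (SE; adjusted p = 0.0465, limma), to 59.4% of WT. The call was close to the threshold: with 1 array left out the adjusted p ran from 0.0216 without Tg 2 to 0.266 without WT 3, and it passed without Tg 2 alone. Nop58, the partner of Nop56 in the particle, behaved otherwise. Its levels were 12.27, 12.15 and 12.11 in WT and 11.62, 10.10 and 12.34 in Tg arrays, so that Tg 2 was far below and Tg 3 above every WT array. Its difference of -0.82 ± 0.49 (SE) did not pass (adjusted p = 0.405, limma), and without Tg 2 it was -0.19. Rrp9, a protein of the U3 particle needed for cutting the precursor, had 9.58, 9.21 and 9.15 in WT and 7.91, 9.17 and 8.89 in Tg arrays. Tg 2 lay among the WT values, and the difference of -0.66 ± 0.34 (SE) did not pass (adjusted p = 0.331, limma).

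Of the core proteins of box H/ACA particles, Gar1, Nhp2 and Nop10 were measured. Gar1 had 12.96, 12.56 and 12.61 in WT and 12.12, 12.18 and 12.21 in Tg arrays. The Tg arrays lay close together, below all WT arrays, with a difference of -0.54 ± 0.14 (SE; adjusted p = 0.0749, limma). Nhp2 had a difference of -0.79 ± 0.28 (SE; adjusted p = 0.162, limma) with Tg values of 11.32, 11.95 and 10.72, the highest in Tg 2. A dimmer probe of Nhp2 had a difference of -0.24. Nop10 was level between the groups at its brighter probe, with a difference of -0.04 and a 95% interval from -0.31 to 0.23, and had -0.52 at its dimmer probe. Nolc1 encodes a chaperone that binds both classes of snoRNP. Its probe was dim, at 5.12, 5.09 and 5.30 in WT and 4.44, 4.69 and 4.87 in Tg arrays, and was detected on 3 WT arrays and 1 Tg array. It was kept only because of the group where it is brighter, so its difference of -0.50 ± 0.16 (SE; adjusted p = 0.128, limma) says little.

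The abundant proteins of the nucleolus include the largest difference of the list. Ncl encodes nucleolin, which binds the precursor RNA and chromatin of its genes. Its levels were 10.84, 10.53 and 10.70 in WT and 9.83, 8.46 and 9.89 in Tg arrays. All Tg arrays were lower and Tg 2 was lower still, giving a difference of -1.29 ± 0.37 (SE; adjusted p = 0.0983, limma) with Tg 2 and of -0.83 ± 0.14 (SE; adjusted p = 0.0134, limma) without it. The other Ncl probe had a difference of -1.42. Npm1, nucleophosmin, had 13.94, 13.87 and 13.91 in WT and 13.22, 12.72 and 13.51 in Tg arrays. Its WT arrays lay within a narrow band above all Tg arrays, and the difference was -0.75 ± 0.19 (SE; adjusted p = 0.0664, limma). Copies of Npm1 elsewhere in the genome, which its probe could also bind, were not examined here. Mybbp1a, a nucleolar protein that binds MYB and regulates ribosomal RNA synthesis, had 11.73, 11.90 and 11.84 in WT and 11.37, 11.11 and 10.98 in Tg arrays. These groups did not overlap, and its difference was -0.67 ± 0.15 (SE; adjusted p = 0.0506, limma), just above the threshold. Its 4 kept probes had differences from -1.12 to -0.64. Ddx21, an RNA helicase of the nucleolus, had a difference of -0.90 ± 0.26 (SE; adjusted p = 0.1, limma). Npm3, a relative of Npm1, was nearly level, with a difference of -0.08 and a 95% interval from -0.29 to 0.14.

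**Figure D2:**
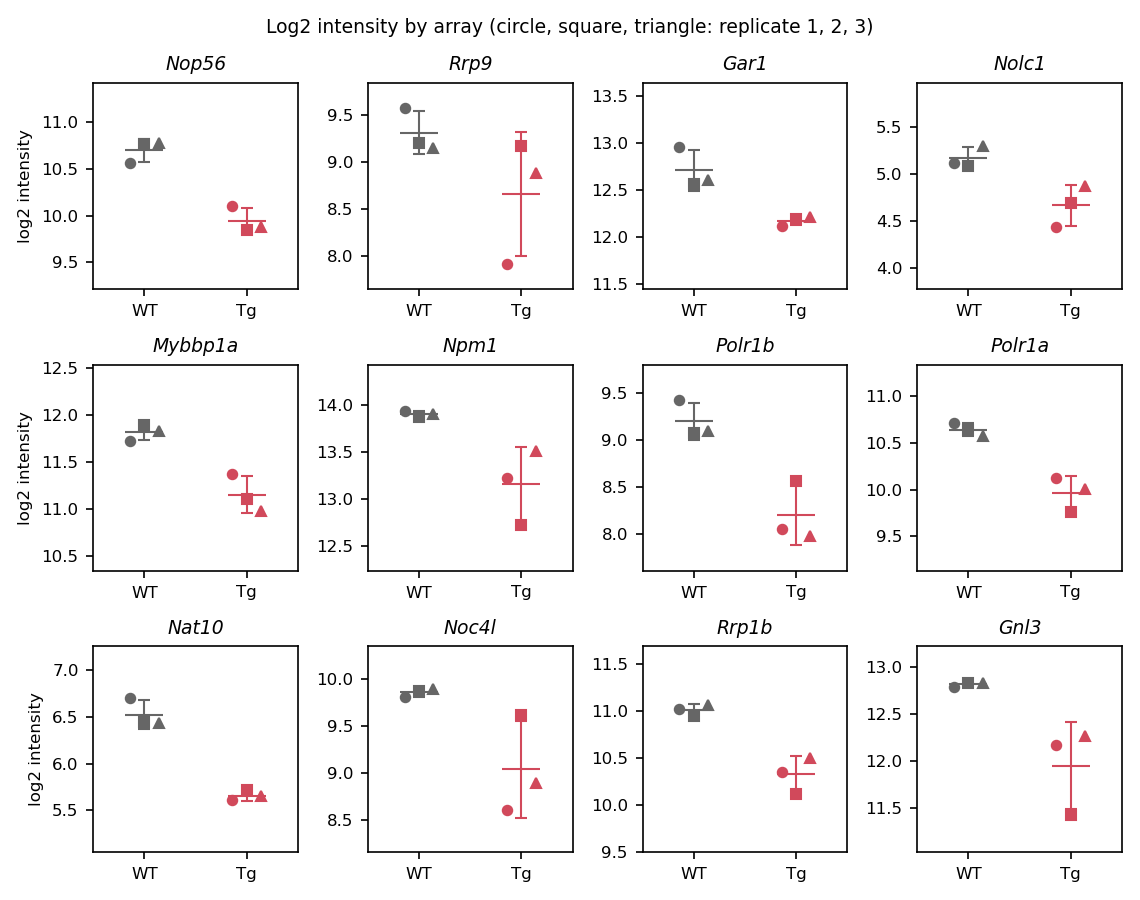
Normalised log2 intensity (vertical axis, each panel spanning the same range) of 12 ribosome biogenesis genes on 3 WT and 3 Tg arrays; points are arrays, and bars the group mean with its SD. All panels except Rrp9 show the Tg points below the WT points, and Nop56, with an adjusted p of 0.0465, is the gene that passed the test.

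The list holds 11 measured genes of the small subunit processome and 40S maturation. Of these, 11 had negative differences, against 50.1% of all genes. In 8 all Tg values lay below all WT values, against 13.2% of all genes. In limma 0 passed, while 1.68% of all genes fell, and 6 were lower at an unadjusted p under 0.05, against 8.89%. Nat10 encodes the enzyme that acetylates cytidines in the RNA of the small subunit. Its levels were 6.70, 6.44 and 6.43 in WT and 5.61, 5.72 and 5.65 in Tg arrays. The Tg arrays lay close together below all WT arrays, and the difference was -0.86 ± 0.19 (SE; adjusted p = 0.0502, limma), to 55.0% of WT. Noc4l, a nucleolar complex protein that takes part in 40S assembly, had 9.80, 9.87 and 9.89 in WT and 8.61, 9.61 and 8.89 in Tg arrays. Tg 2 lay close to WT, so the difference of -0.82 ± 0.27 (SE; adjusted p = 0.137, limma) became -1.11 ± 0.14 (SE; adjusted p = 0.00736, limma) without it. Heatr1, a processome protein also needed for RNA polymerase I transcription, showed the opposite. It had 11.75, 11.74 and 11.82 in WT and 11.43, 9.69 and 11.08 in Tg arrays, and its difference shrank from -1.04 to -0.52 without Tg 2. Among the others, Ddx10, an RNA helicase, had -0.78 and Wdr43, a processome protein, -0.66. Tsr1 and Rrp12, which act on late precursors of the subunit, had -0.51 and -0.49, Nob1, the nuclease that makes the mature end of the small subunit RNA, -0.41, and Utp15, a processome protein, -0.41. Imp3 and Imp4, which join the U3 particle to the precursor, were nearly level, with differences of -0.09 (95% interval -0.56 to 0.37) and -0.07 (95% interval -0.47 to 0.34).

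Of the 11 measured genes of 60S maturation in the list, 10 had negative differences, against 50.1% of all genes. In 7 all Tg values lay below all WT values, against 13.2% of all genes. In limma 0 passed, while 1.68% of all genes fell, and 7 were lower at an unadjusted p under 0.05, against 8.89%. Gnl3 encodes nucleostemin, a GTPase of the nucleolus. Its levels were 12.79, 12.83 and 12.83 in WT and 12.17, 11.42 and 12.27 in Tg arrays. The WT arrays were almost equal and all Tg arrays lay lower, with a difference of -0.87 ± 0.22 (SE; adjusted p = 0.0686, limma). Its 3 kept probes ran from -1.12 to -0.87. Rrp1b, a nucleolar protein that binds the large subunit precursor, had 11.03, 10.95 and 11.07 in WT and 10.36, 10.12 and 10.50 in Tg arrays. Its groups did not overlap, its difference was -0.69 ± 0.16 (SE; adjusted p = 0.0565, limma), and its 4 kept probes ran from -0.96 to -0.69. Noc3l and Noc2l, whose yeast counterparts escort the early 60S precursor, had -0.74 and -0.55, and Ppan and Grwd1, which act in 60S assembly, had -0.60 and -0.56. Bop1 and Pes1, partners in a complex that processes the large subunit RNA, had -0.56 and -0.44. Nop2, which methylates that RNA, had -0.35 and Rrs1, which in yeast helps to add the 5S particle, -0.18. Wdr74 had 0.03, with a 95% interval from -0.52 to 0.57, and the highest level of all arrays in Tg 2, at 10.16 against 9.57 to 9.74 in WT.

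**Figure D3:**
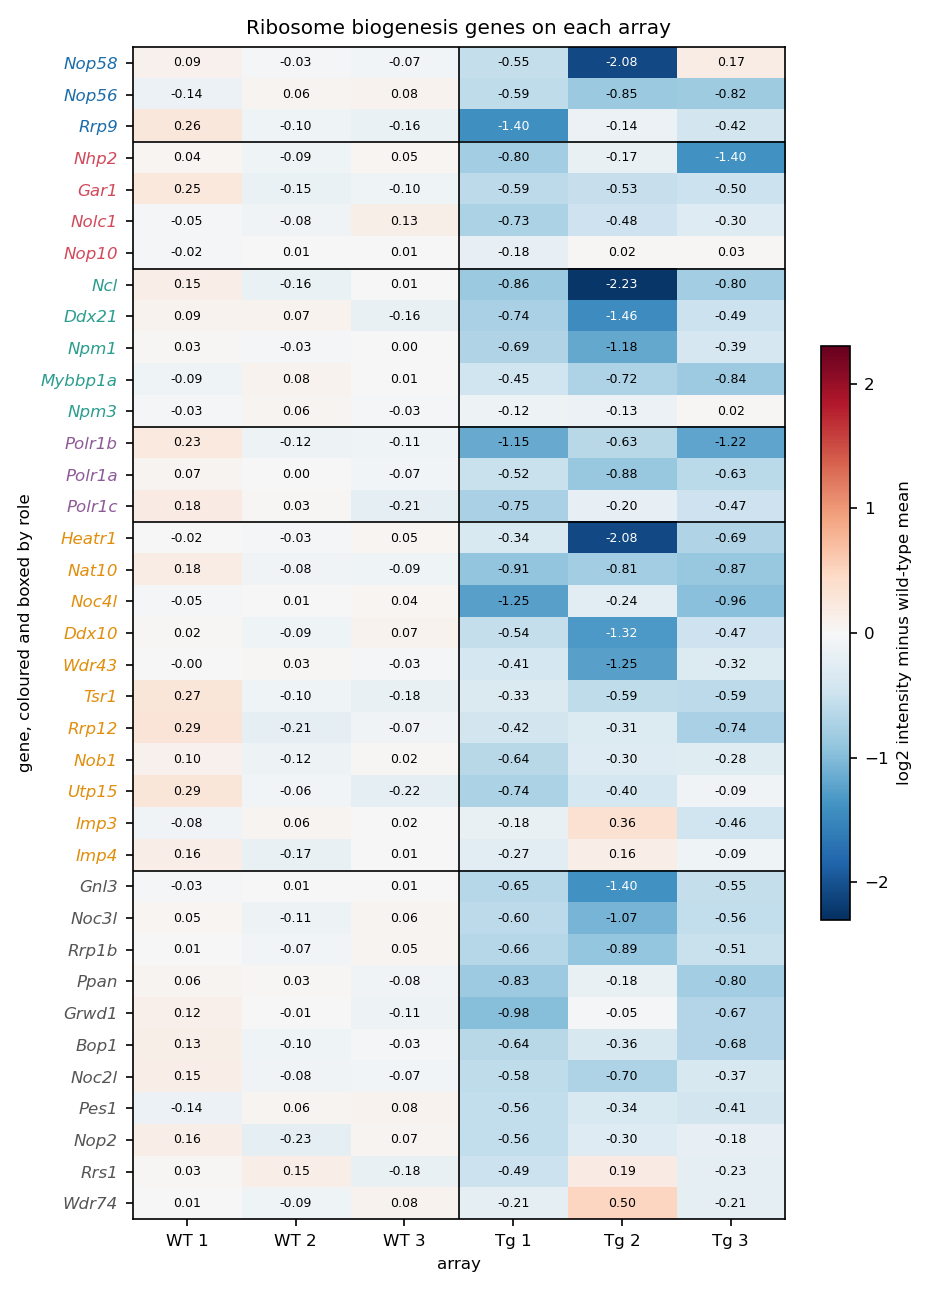
Normalised log2 intensity minus the mean of the 3 WT arrays (colour and printed value) for each of the 37 genes (rows, boxed by role) on each array (columns). Tg 1 lies below the lowest WT array in all 37 genes, and Tg 2 ranges from -2.23 (Ncl) to 0.50 (Wdr74).

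The Tg arrays shared a lower median but not the same profile. The median of the 37 genes against the WT mean was -0.59 in Tg 1, -0.48 in Tg 2 and -0.49 in Tg 3. All 37 lay below the lowest WT array in Tg 1, 29 did so in Tg 2 and 31 in Tg 3. The SD over genes of the difference from the WT mean was 0.66 in Tg 2 against 0.29 in Tg 1 and 0.33 in Tg 3. Against the mean of Tg 1 and Tg 3, 8 genes were more than 0.5 lower in Tg 2 (Nop58, Heatr1, Ncl, Wdr43, Ddx21, Ddx10, Gnl3 and Npm1). Another 9 were more than 0.5 higher (Nhp2, Noc4l, Grwd1, Rrp9, Wdr74, Imp3, Ppan, Polr1b and Rrs1). These 17 genes were picked by that difference, which is a description of 1 array. Tg 2 stood apart by the same measure in 43.6% of all genes.

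Separate probes of a gene often gave a Tg 2 difference of the same sign, though not always of the same size. Of 19 genes with several kept probes, 14 had the same sign of the Tg 2 difference at each probe. The Ncl probes had -1.48 and -1.402, the Heatr1 probes -1.56 and -1.49, the Gnl3 probes -0.83 to -0.70 and the Grwd1 probes 0.77 to 0.99. Other genes varied more between probes. The Nop2 probes ran from 0.08 to 1.43, the Imp4 probes from 0.34 to 1.33, the Nob1 probes from 0.16 to 1.09, the Mybbp1a probes from -0.07 to 1.32 and the Polr1a probes from -1.44 to 0.10. All kept probes were lower in Tg than in WT cells in each of the 19 genes, and 63 of 64 kept probes of the list were, the exception being the Wdr74 probe. With each kept probe tested on its own, 0 of the 64 passed in limma, against 1.38% of all 18597 probes that fell. Probes of a gene share their RNA samples, so they are no further replicates.

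**Figure D4:**
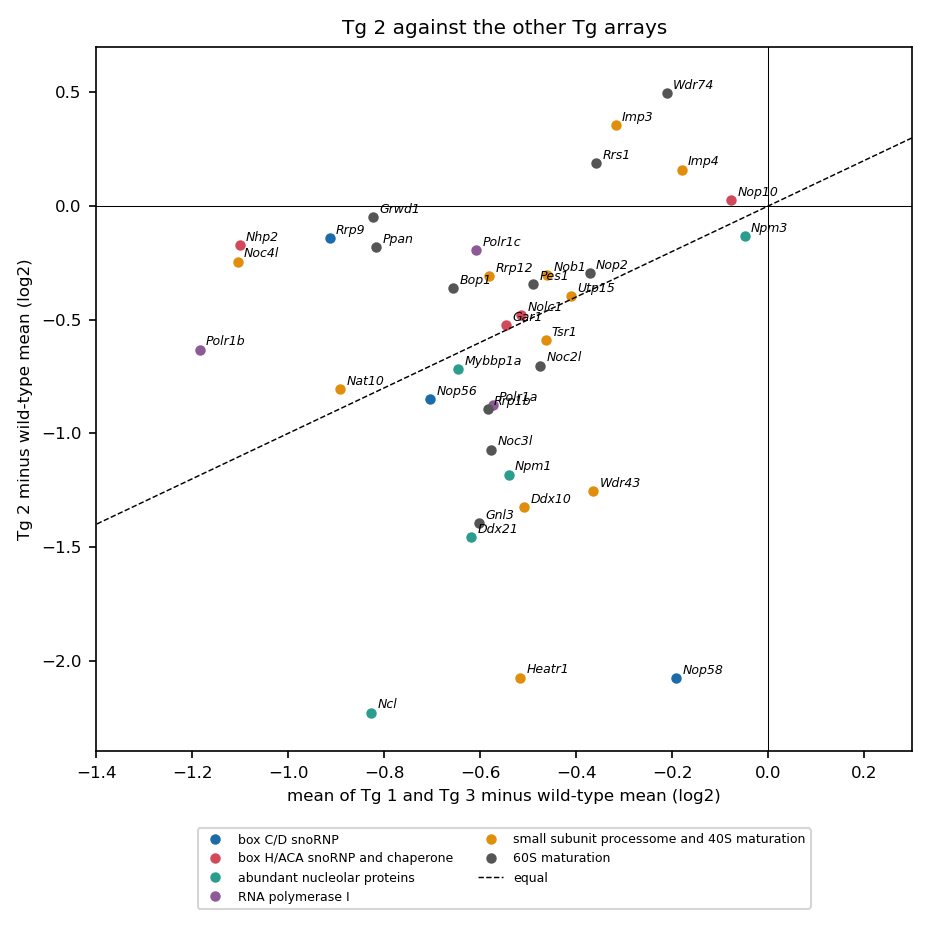
Each point is 1 of the 37 genes, with the mean of Tg 1 and Tg 3 minus the WT mean on the horizontal axis and Tg 2 minus the WT mean on the vertical axis (both log2), coloured by role; the dashed line marks equal values. Ncl, Heatr1 and Nop58 lie far below the line, while Nhp2, Noc4l, Rrp9 and Wdr74 lie above it.

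WT arrays differed little from each other in these genes. The median SD within a group was 0.11 in WT and 0.29 in Tg arrays, against 0.15 and 0.33 over all genes, and 31 of the 37 had the larger SD in Tg, as did 81.1% of all genes. The bead noise of a probe on an array, as the standard error over beads, was 1.75% to 7.33% of its intensity with a median of 3.17%. Red blood cell RNA differed strongly within WT: the beta globin gene Hbb-b1 had 8.003, 12.40 and 13.12 in WT 1, 2 and 3 and 9.58, 10.21 and 9.40 in Tg arrays. For the 2 red cell genes tested of 3 listed, the log2 of the summed intensities ran from 8.65 to 13.86 in WT and 9.93 to 11.03 in Tg. The 37 genes had a median of 0.08 in WT 1 minus the mean of WT 2 and WT 3, with a range from -0.21 to 0.43. S100a8, a neutrophil gene, had 5.44, 5.80 and 7.96 in WT and was detected on 0 Tg arrays, and S100a9 was detected on 1 WT array. The part of other cells in the differences was not tested.

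**Figure D5:**
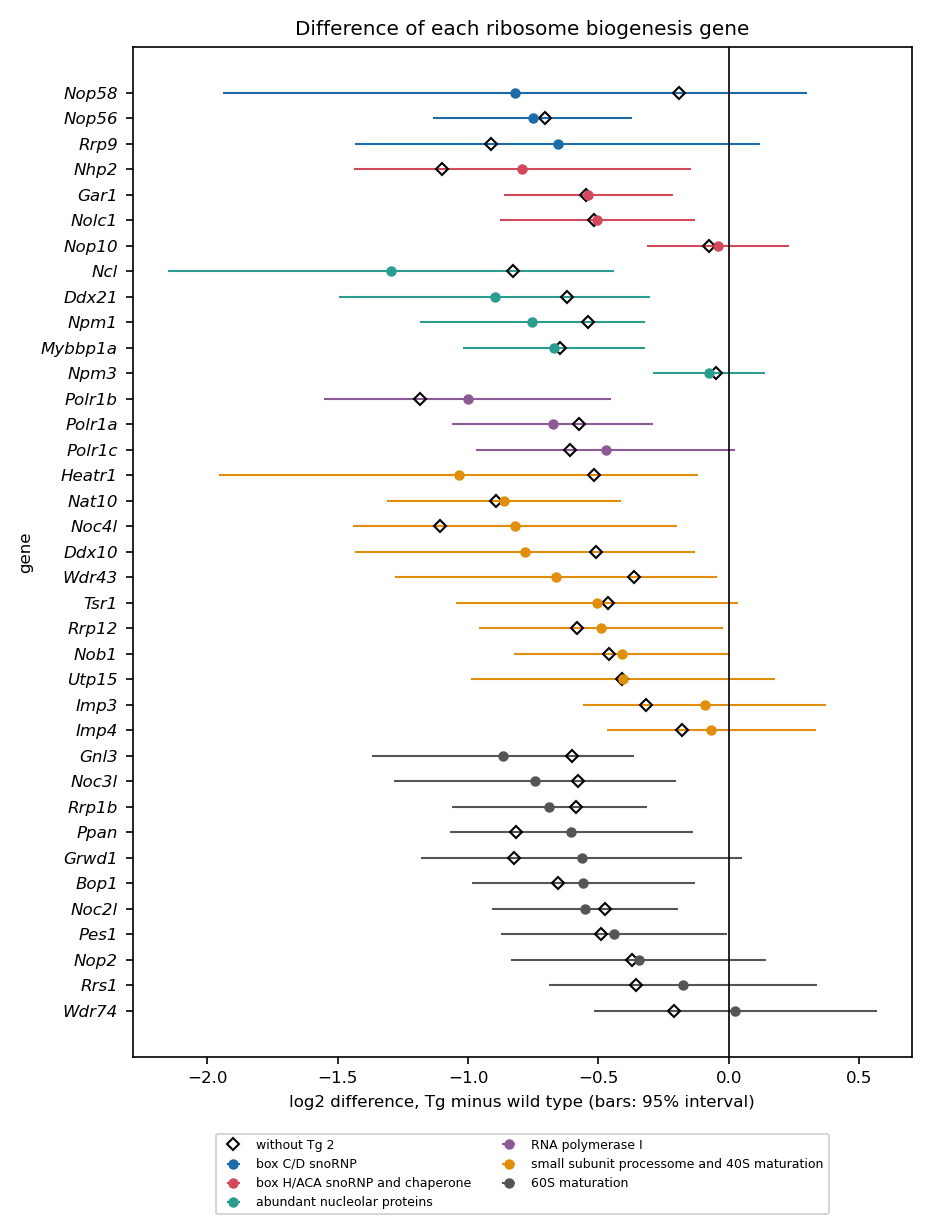
Log2 difference, Tg minus WT, of each of the 37 genes (horizontal axis), with its 95% interval as a bar and the value without Tg 2 as an open diamond, coloured by role. Without Tg 2 all 37 values lie below 0, and the differences of Nop58, Ncl and Heatr1 move toward 0.

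Genes that act in the same pathway but are not in the list also tended to be lower. Of 118 such genes, 100 were tested and 86 had a negative difference, against 50.1% of all genes, with a median of -0.38. The other 14 had a positive difference. In limma 5 fell (5%) and 0 rose, against 1.68% and 2.55% of all genes, and 33 (33%) had all Tg arrays below all WT arrays, against 13.2%. Rcl1, which in yeast takes part in cutting the small subunit precursor, fell by 1.22 ± 0.18 (SE; adjusted p = 0.0150, limma), with 11.18, 10.93 and 10.98 in WT and 9.57, 10.01 and 9.86 in Tg arrays. Mphosph6, a partner of the RNA exosome in making the smaller large subunit RNA, fell by 1.21 ± 0.22 (SE; adjusted p = 0.0258, limma). The RNA helicase gene Dhx33 fell by 1.03 ± 0.22, the 60S assembly gene Rrp15 by 0.89 ± 0.18 and Mrto4, which helps to assemble the stalk of the large subunit, by 0.85 ± 0.17 (SE; adjusted p of 0.0415, 0.0355 and 0.0374, limma). The groups of these 5 genes did not overlap. None of the 5 (0) was called without any of WT 1, WT 2, WT 3 or Tg 1, where their adjusted p lay between 0.0599 and 0.235 in limma. Over all genes those fits called 1, 47, 2 and 49. Tsr3, which modifies the small subunit RNA, had the highest difference of the 100, 0.84 ± 0.20 (SE; adjusted p = 0.0562, limma).

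Genes of growth and division were measured beside these. All 12 proliferation genes listed were tested and had negative differences, against 50.1% of all genes. Their median was -0.55, with a range from -1.20 (Mcm5) to -0.06 (Ccna2). Only 1 of the 12 passed, while 1.68% of all genes fell. It was Mcm5, a subunit of the MCM replication helicase, which fell by 1.20 ± 0.12 (SE; adjusted p = 0.00615, limma). The log2 of the summed intensities of the 12 genes, in which bright probes weigh most, ran from 14.99 to 15.06 in WT and from 14.17 to 14.61 in Tg. Their part in the ribosome biogenesis differences was not tested. Myc had 7.43, 7.99 and 7.84 in WT and 6.88, 7.66 and 5.92 in Tg arrays. The groups overlapped through Tg 2, and the difference of -0.93 ± 0.43 (SE) did not pass (adjusted p = 0.278, limma), while Mycn was detected on 0 arrays. The other growth regulators listed, Max, Mxd4 and Mnt, had differences of -0.47, 0.16 and 0.09. They did not pass either (adjusted p of 0.627, 0.752 and 0.857, limma).

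MYC and its partner MAX are known to bind the E-box, whose letters CACGTG read the same on both strands. The motif was looked for in RefSeq promoters (build GRCm38.p6, from 250 bases before to 50 after the start site) because the genes had lower levels together. Of the 37 genes, 33 had a promoter in the table and 7 of those (21.2%) held the motif. Of the other ribosome biogenesis genes tested, 80 had a promoter and 22.5% of those held it. The share was 11.9% of the 8045 tested genes with a promoter and 8.1% of all 27025 genes with one. Counted by promoter, it was 7.2% of all 32851. In 5 of the 7 listed genes the motif began 2 to 40 bases after the start site, and in the other 2 it began 60 and 121 bases before that site. The stretches that hold it are given 5′ to 3′ on the gene's strand with the motif in capitals, to show the bases around it; the start site itself is not marked.
Mybbp1a, chr11:72441340-72441376, plus strand: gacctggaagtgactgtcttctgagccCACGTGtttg
Wdr43, chr17:71616205-71616264, plus strand: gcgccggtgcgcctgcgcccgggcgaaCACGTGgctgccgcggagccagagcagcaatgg
Tsr1, chr11:74898077-74898129, plus strand: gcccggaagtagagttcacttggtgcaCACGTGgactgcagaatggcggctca
Grwd1, chr7:45830740-45830782, minus strand: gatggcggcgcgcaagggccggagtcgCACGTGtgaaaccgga
Pes1, chr11:3963950-3964009, plus strand: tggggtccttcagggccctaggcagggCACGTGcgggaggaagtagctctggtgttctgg
Nop2, chr6:125131796-125131855, plus strand: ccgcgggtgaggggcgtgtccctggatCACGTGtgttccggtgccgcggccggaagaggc
Imp4, chr1:34439681-34439740, plus strand: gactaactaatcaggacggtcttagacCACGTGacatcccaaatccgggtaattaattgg
The 7 genes with the motif had a median difference of -0.51, and those of the 33 without it had one of -0.68. Any part of MYC in the differences was not tested. A match describes the sequence and does not show binding.

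6 genes of the list gave no difference. Dkc1, the pseudouridine synthase of the box H/ACA particle, has 2 probes, and Utp20, Bysl, Wdr12 and Nop16 have 1 each, and each was detected on 0 of 6 arrays, which gives only an upper bound on their signal. Fbl, the methyltransferase of the box C/D particle, was not analysed here.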

How the data were processed

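RNA of 3 WT and 3 Tg samples was measured on 6 Illumina arrays. Per the file headers, GenomeStudio 1.9.0 wrote the deposited probe table without normalization. The sources used here do not state a background subtraction. It holds the mean bead intensity, the SD between beads (a signal on the intensity scale), the count of beads and a detection score deposited as a fraction, read as 1 minus the detection p-value because bright probes score high. The authors' deposited series values matched log2 of their deposited gene-level intensity table and, once quantile normalized here, served as an alternative. Here, intensities were corrected for background by normexp from the detection values (offset 16), then quantile normalized and taken to log2 (neqc, limma 3.58.1, R 4.3.3). A probe stayed in when its detection p was below 0.05 on 3 or more arrays (18597 of 45281 probes). The brightest such probe stood for its gene, and limma (lmFit, then eBayes with trend) tested 12426 genes. Probe names were matched to RefSeq symbols and unique synonyms, and for 10 of the 37 genes the probe carries an older name. The fit was tested on simulated data. Permuting 3 samples against 3 exactly, with both sides counted, gives no p below 0.1. The genes and lists were chosen with earlier results of these data known. Values on every array are given for genes that passed and for those with the 2 smallest unadjusted p in each role group. Nhp2, Ncl, Heatr1, Nop58, Polr1c and Wdr74 were added after their values were seen. Of other ribosome biogenesis genes, those that passed are named, and Tsr3 was added likewise. Alternatives changed the background correction, normalization, filter, variance model, weights, block, probe rule, threshold and arrays. Sites of miR-185 were not analysed here.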

Additional observations from a re-analysis of the deposited data

How the results depend on the processing

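Over all alternatives the median difference of the ribosome biogenesis genes lay between -0.66 and -0.52, and 34 to 37 of the 37 genes had a negative difference, with the lowest number without Tg 1. With no filter it was 38 of 42, and 35 of 36 among genes detected on all 6 arrays. For the 12 listed and 5 other genes named by rule, which had low p-values, 0 of 356 recomputed differences changed sign, 51 lost a call and 39 gained one. Gains at an adjusted p under 0.1 came from the looser threshold alone, since that setting keeps the differences and p-values of the main fit. The number of genes called (limma) was less stable than the differences. Nop56 lay between -0.83 and -0.68, with adjusted p from 0.00051 to 0.266 in limma, and passed 0.05 in 7 alternatives. In place of 1 listed gene, which fell, 2 fell with normexp at offset 50, with no background correction, with the authors' series values and among genes detected on all 6 arrays, and 3 with the mean of the kept probes. With cyclic loess normalization and with no trend, 1 fell, but it was Nat10. Nop56 had an adjusted p of 0.055 and 0.0522 in limma there. With robust eBayes and with every kept probe tested, 0 fell. Median scaling left 0 listed genes, 1 of the other ribosome biogenesis genes (5 in the main test) and 310 genes in all (526 in the main test). With no filter these were 0, 2 and 312, and with WT 2 and WT 3 averaged 0, 0 and 36. Array weights gave 30, 42 and 4472, and an adjusted p under 0.1 gave 12, 12 and 1049. With 1 array left out they ran from 0 to 17, from 0 to 21 and from 1 to 1709, the highest each time without Tg 2. The cause of these changes was not tested.

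With the replicate number as a block, 0 listed genes, 1 other ribosome biogenesis gene and 264 genes in all were called, and Nop56 had an adjusted p of 0.15 in limma. Deviations of same-numbered samples from their group means correlated over genes at r of -0.25, 0.11 and -0.22 for numbers 1, 2 and 3. With 3 arrays a group these deviations depend on each other. The values therefore cannot show whether same-numbered samples were handled together, and the labels give only the number.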
